A study of Mus musculus with 2 samples.

Results

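The genes that build 3 kinds of cell junction were followed in mouse embryonic limb: desmosomes, tight junctions (through the claudins) and gap junctions (through the connexins). Members were chosen by name, as protein-coding genes called claudins, desmogleins, desmocollins, plakophilins or connexins, plus Dsp, Jup, Perp, Ppl and Evpl. The rule itself used no measured value, but it was set with earlier results of these data known. It gave 61 of the 43346 mouse gene rows: 23 claudins, 9 desmosomal cadherins, 8 armadillo and plakin proteins, Perp and 20 connexins.

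The samples were total RNA from limbs of B6NCrl mouse embryos, an inbred wild-type laboratory strain, at 15.5 days of development. Both libraries belonged to 1 group. Each was made from a pool of male and female embryos, 78 in replicate 1 and 62 in replicate 2, with 10 ng of RNA longer than 200 nt. Which limbs went into the pools (fore, hind or all) is not stated in the labels.

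Desmosomes rivet neighbouring cells together: desmogleins and desmocollins span the membranes, plakoglobin and plakophilins bind them inside the cell, and desmoplakin ties the plaque to the keratin filaments. Claudins are the strands of tight junctions and set which ions and molecules pass between cells, while connexins assemble into channels that let small molecules pass from one cell to the next. In embryonic limb the epidermis, with its basal, suprabasal and covering periderm cells, is rich in all these junctions, and vessels, cartilage, bone, muscle and nerve use subsets of them.

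The sum of all expected counts was 35104685 for replicate 1 and 41757268 for replicate 2, of which the members held 142181 and 178205. Members together held 0.237% and 0.239% of all TPM (an abundance corrected for transcript length and depth, so that genes can be set side by side). Each of the 7 basal keratinocyte, 7 suprabasal keratinocyte and 5 chondrocyte markers had at least 1 TPM in both libraries, against 62.7% of all protein-coding genes. The marker lists not fully above that level were Schwann cell (5 of 7), osteoblast (5 of 6) and neuron (3 of 4). The lists hold no gene of limb identity, so they could not test the limb label. The pools were not alike in muscle and bone RNA: the summed level of 7 skeletal muscle markers came to 4490 TPM for replicate 1 and 1270 TPM for replicate 2, and that of 6 osteoblast markers was 760.5 and 397.1 TPM. In a whole tissue, fewer cells of a type and less RNA per cell cannot be told apart. With 1 group of 2 pools there was no contrast between conditions and no test. Errors are SDs over the libraries (n = 2).

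At least 1 TPM in both libraries was reached by 39 of the 61 members (63.9%), against 62.7% of all 21474 protein-coding genes with a row. At least 10 TPM in both was reached by 24 members (39.3%), against 41.3%. The junction genes as a whole were therefore detected about as often as other protein-coding genes, but the families differed. All 8 armadillo and plakin genes reached 1 TPM in both libraries, as did 7 of 9 desmosomal cadherins, 12 of 23 claudins and 11 of 20 connexins. The median level of a family was 56.8 ± 2.56 TPM for the armadillo and plakin genes, 6.02 ± 0.0566 TPM for the desmosomal cadherins, 3.31 ± 0.548 TPM for the connexins and 1.53 ± 0.516 TPM for the claudins.

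**Figure D1:**
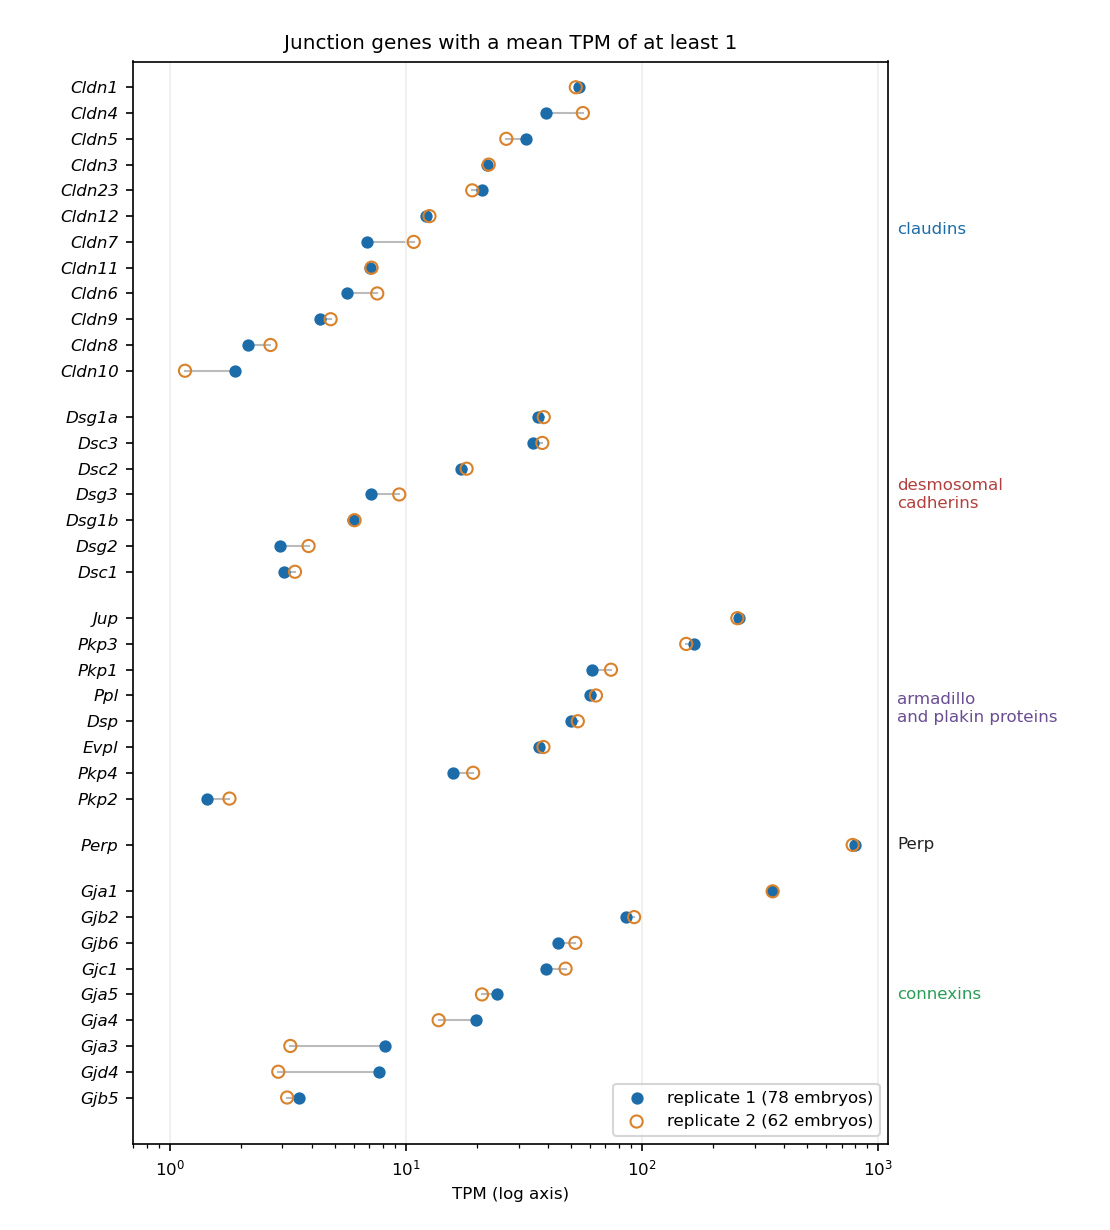
Level of 37 of the 39 junction genes with a mean of at least 1 TPM, on a log axis in TPM, ordered by mean and grouped by family. Each gene has 1 point for replicate 1 and 1 for replicate 2; Perp, Gja1, Jup and Pkp3 lie above 100 TPM in both libraries, and Gja3 and Gjd4 show the widest gaps between their points.

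The most abundant member was Perp, a membrane protein of the desmosome that depends on the transcription factor p63 in stratified epithelia. It was at 795 TPM in replicate 1 and 779 TPM in replicate 2, a mean of 787 ± 10.9. That was 33.0% ± 0.657 of the summed TPM of all 61 members. The deposited intervals of the libraries, which cover counting and read assignment but not embryo-to-embryo variation, overlapped for Perp.

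Among the desmosomal cadherins, the desmoglein of the upper epidermal layers led. Dsg1a was at 36.3 and 38.3 TPM in replicates 1 and 2 and held 33.3% ± 0.793 of the summed level of the 9 cadherin genes. Its copy Dsg1b was at 5.98 and 6.06 TPM, and the other copy Dsg1c was at 0.03 and 0.11 TPM. The coding sequences of these copies are nearly the same: Dsg1a and Dsg1b were identical at 97.0% of aligned bases, Dsg1a and Dsg1c at 96.0%, and Dsg1b and Dsg1c at 95.5%. The split of reads between them is therefore uncertain, and expected counts for them were fractional (4523.66 for Dsg1a and 516.07 for Dsg1b in replicate 1). Taken as a sum, the Dsg1 copies were at 42.3 and 44.5 TPM.

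Dsg3, the desmoglein concentrated in the basal layer, was at 7.10 and 9.37 TPM. The Dsg1 sum exceeded it 5.89-fold in replicate 1 and 4.71-fold in replicate 2. Dsg2, the desmoglein of simple epithelia and heart, was at 2.92 and 3.87 TPM. Dsg3 exceeded Dsg2 2.38-fold in replicate 1 and 2.39-fold in replicate 2, so the order of the 3 types was the same in both pools. Dsg4, known from the hair follicle, was at 0.12 and 0.16 TPM, on 9 and 15 counts.

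The desmocollins had a different order from the desmogleins. Dsc3, the basal-layer desmocollin, was highest at 34.6 and 37.8 TPM. Dsc2, the most widely expressed desmocollin, was at 17.1 and 18.1 TPM, and Dsc1, the desmocollin of the uppermost living layers, at 3.04 and 3.39 TPM. Dsc3 exceeded Dsc2 by 2.01-fold and 2.09-fold, and it exceeded Dsc1 by 11.1-fold and 10.9-fold. Thus the upper-layer type led among desmogleins and the basal type among desmocollins, in both libraries.

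In the desmosomal plaque, Jup (plakoglobin, which desmosomes share with adherens junctions) was at 257 and 253 TPM. It held 39.1% ± 0.823 of the summed level of the armadillo and plakin genes. Dsp (desmoplakin, the link to keratin) was at 50.0 and 53.4 TPM, so Jup exceeded Dsp by 5.14-fold and 4.73-fold. The plakins of the cornified envelope, Ppl (periplakin) and Evpl (envoplakin), are known to bind each other. Ppl was at 60.0 and 63.8 TPM and Evpl at 36.5 and 38.2 TPM, a ratio of 1.64 and 1.67.

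The plakophilins spread over a wide range. Pkp3, the plakophilin found through all living layers of the epidermis, was at 166 and 154 TPM. Pkp1, enriched in its upper layers, was at 61.4 and 73.9 TPM. Pkp4, a relative that also sits at adherens junctions, was at 15.8 and 19.3 TPM, and Pkp2, the plakophilin of heart and simple epithelia, at 1.44 and 1.79 TPM. Pkp1 exceeded Pkp2 39.9-fold in replicate 1 and 39.1-fold in replicate 2. The order of Pkp1 and Pkp3 depended on the scale. On TPM Pkp3 was higher by 2.70-fold and 2.08-fold. On expected counts, which are not scaled by length, the mean log2 ratio of Pkp1 over Pkp3 was 0.10, but the libraries disagreed. Pkp1 had 6177 counts and Pkp3 6331 in replicate 1, against 9085 and 7726 in replicate 2. Over coding transcripts of at least 1000 nt, a choice made after seeing the data, the mean log2 ratio was -0.42. For the whole genes on TPM it was -1.25.

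Of the 23 claudins, 6 had at least 10 TPM in both libraries. Cldn1, a claudin without which the epidermal water barrier fails, was at 54.0 and 52.4 TPM. Cldn4, a sealing claudin of many epithelia, was at 39.3 and 56.1 TPM. These claudins could not be ordered: Cldn1 exceeded Cldn4 by 1.37-fold in replicate 1, and Cldn4 exceeded Cldn1 by 1.07-fold in replicate 2. Cldn1 held 24.3% ± 1.60 of the summed claudin level, the smallest leading share among the 4 families on TPM; by expected counts it was 38.2%, above the 31.2% of Jup.

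Cldn5, the main claudin of blood vessel endothelium, was at 32.2 and 26.6 TPM, with intervals that did not overlap. Cldn3, a close relative of Cldn4, was at 21.99 and 22.42 TPM. Cldn4 exceeded Cldn3 by 1.79-fold in replicate 1 and 2.50-fold in replicate 2. Cldn23 was at 21.01 and 19.09 TPM, and Cldn12, a widely expressed claudin, was at 12.1 and 12.6 TPM.

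The other 6 claudins with a mean of at least 1 TPM were lower. Cldn7, found in many epithelia, was at 6.83 and 10.8 TPM, and Cldn6, known from early embryonic epithelia, at 5.61 and 7.56 TPM. Cldn4 exceeded Cldn6 by 6.90-fold and 7.34-fold. Cldn11, the claudin of myelin and of Sertoli cells, was at 7.04 and 7.15 TPM. Cldn9, the neighbour of Cldn6, was at 4.33 and 4.80 TPM, Cldn8, a claudin of tight epithelia such as the distal nephron, at 2.14 and 2.67 TPM, and Cldn10, which forms ion pores, at 1.89 and 1.16 TPM.

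Among the 11 remaining claudins, Cldn2, a pore-forming claudin of leaky epithelia, was at 1.35 and 0.45 TPM and Cldn13 at 0.23 and 1.06 TPM, so each passed 1 TPM in 1 library. The rest stayed under 1 TPM in both: Cldn14, Cldn15, Cldn16, Cldn17, Cldn18, Cldn19, Cldn20, Cldn22 and Cldn24. Claudins known from kidney, inner ear, gut, lung or stomach are in that set. Cldn15, the pore-forming claudin of the gut, was the highest of them, at 0.86 TPM on 31 counts and 0.13 TPM on 6 counts. Cldn19, a claudin of kidney and of Schwann cells, was at 0.11 and 0.04 TPM. All 995 annotated bases of the Cldn22 gene lie opposite an exon of Wwc2, and the strand setting of the counting is not stated. The reads of Cldn22 (4 and 9 counts) therefore cannot be told apart from those of Wwc2, which was at 9.30 and 11.5 TPM.

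Connexins were dominated by a single member. Gja1, the most widely expressed connexin, with known roles in skin, bone and limb patterning, was at 355 and 357 TPM. It held 58.0% ± 0.104 of the summed connexin level, with overlapping intervals. Gjc1, known from smooth muscle, heart and embryonic vessels, was at 39.1 and 47.4 TPM, and Gja1 exceeded it by 9.05-fold and 7.52-fold.

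The epidermal connexins came next. Gjb2, mutated in inherited deafness and in skin disease, was at 85.3 and 92.6 TPM, and Gjb6, its neighbour and partner in mixed channels, at 44.3 and 52.2 TPM. Gjb2 exceeded Gjb6 by 1.93-fold in replicate 1 and 1.77-fold in replicate 2. Gjb5, a further epidermal connexin, was at 3.54 and 3.14 TPM.

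Both arterial connexins were present. Gja5 was at 24.29 and 20.99 TPM and Gja4 at 19.9 and 13.8 TPM, so Gja5 led by 1.22-fold and 1.52-fold. Up to 165 bases of a Gja5 exon lie opposite an exon of Gpr89, which was at 27.0 and 25.95 TPM, so part of the Gja5 reads could belong to either gene. Gja3, best known from the lens, was at 8.17 and 3.24 TPM, and Gjd4, known from developing skeletal muscle, at 7.72 and 2.88 TPM.

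Under 1 TPM in both libraries were 9 connexins, among them Gja6, Gja10, Gjb1, Gjc3, Gjd2, Gjd3 and Gje1. They include the neuronal connexin Gjd2 and connexins of myelinating Schwann cells. Of the Schwann cell connexins, Gjc3 was at 0.37 and 0.30 TPM on 28 counts in each library, and Gjb1 was at 0.18 and 0.13 TPM. Of the 7 Schwann cell markers, 5 reached 1 TPM in both libraries, near the 62.7% of all protein-coding genes. Their mean levels ran from 0.735 to 17.2 TPM, so the count says little about how much Schwann cell RNA was present.

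No read was counted in either library for 4 members: the claudins Cldn16 and Cldn24 and the connexins Gja10 and Gje1. A count of 0 still allows up to 3 counts, or 0.0855 CPM (counts scaled to library size) for replicate 1 and 0.0718 CPM for replicate 2, by counting error alone.

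Transcript tables were read for the members with a mean of at least 10 TPM and 2 or more transcripts, which were 11 of 24. A single transcript held over 90% of the gene's TPM in both libraries for 4 of them: Jup, Pkp1, Gja5 and Gjb6. Desmoplakin is known to be made as a longer and a shorter splice form. The transcript of 7761 nt, Dsp-202, held 71.2% of Dsp in replicate 1 and 71.6% in replicate 2. The transcript of 9538 nt, Dsp-201, held 28.0% and 27.8%. The balance of the 2 forms was therefore nearly the same in both pools.

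**Figure D2:**
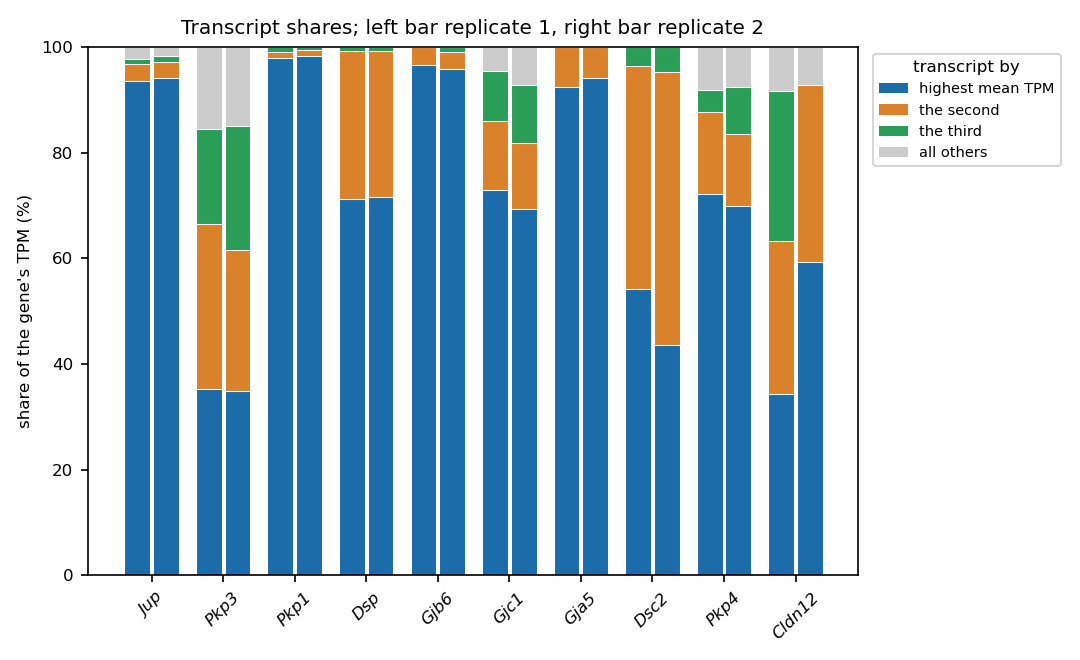
Share of each gene's TPM, in percent, held by its transcripts, for 10 of the 11 junction genes with a mean of at least 10 TPM and 2 or more transcripts. The left bar of a pair is replicate 1 and the right bar replicate 2, coloured by the rank of the transcript's mean TPM; the Dsp bars are alike, while the Cldn12 bars differ.

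Elsewhere the gene level held much that was not a full coding transcript. Pkp4-209, a transcript of 2505 nt annotated as non-coding, held 72.2% and 69.9% of Pkp4. Annotated coding transcripts of at least 1000 nt summed to 3.81 and 4.76 TPM for this gene. In Pkp3, a transcript of 462 nt with no entry in the annotation used for names held 31.3% and 26.8%. Coding transcripts of at least 1000 nt of Pkp3 summed to 88.3 and 89.7 TPM, which is 53.3% and 58.3% of the gene.

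For Dsc2, the transcript with the higher estimate was not the same in the libraries, but the intervals overlapped. Dsc2-202 held 54.2% in replicate 1 and 43.6% in replicate 2, and Dsc2-201 held 42.2% and 51.7%. The interval of Dsc2-202 was 6.79 to 10.86 TPM in replicate 1 and 6.05 to 9.68 TPM in replicate 2, and that of Dsc2-201 was 5.22 to 9.08 TPM and 7.15 to 10.7 TPM. Cldn12-201 held 34.4% and 59.4% of Cldn12, while Cldn12-207 held 28.3% in replicate 1 and was listed at 0 in replicate 2. The deposited intervals of Cldn12-201 ran from 1.42 to 7.58 TPM and from 4.03 to 9.43 TPM, so they overlapped. At this depth neither the Dsc2 nor the Cldn12 transcripts could be told apart well enough to separate the pools.

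Between the pools, most members of at least 1 TPM mean lay within 1.5-fold, but their typical difference was somewhat wider than that of all genes. The difference is given as log2 of replicate 2 over replicate 1 (TPM with 0.1 added, centred on the median gene). Its median over the 39 members was 0.09, a 1.06-fold difference. It was above 0 for 26 members and below 0 for 13. With the sign left out, the median was 0.169, against 0.133 for all genes of that level. Of the 39, 24 lay within 1.2-fold (61.5%, against 74.3% of all 15571 genes of that level) and 35 within 1.5-fold (89.7%, against 92.0%). All 24 members with a mean of at least 10 TPM lay within 1.5-fold, against 97.2% of all such genes. Within 1.2-fold were 19 of them (79.2%, against 85.7%).

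Over 2-fold apart were 2 of the 39 members, against 3.63% of all genes of that level. Both were connexins, and both were higher in replicate 1, where 2.47% of all genes lay. No member was over 2-fold higher in replicate 2, against 1.16% of all genes. Gjd4 was at 7.72 TPM (441 counts) in replicate 1 and 2.88 TPM (201 counts) in replicate 2, a log2 difference of -1.37 or 2.58-fold. Gja3 was at 8.17 TPM (264 counts) and 3.24 TPM (128 counts), a log2 difference of -1.29 or 2.44-fold. The deposited intervals did not overlap for either gene. Among genes of 1 to 10 TPM, where both lie, 7.22% were over 2-fold apart, 4.43% higher in replicate 1 and 2.79% higher in replicate 2. No member of at least 10 TPM was over 2-fold apart. Of all genes at 10 to 100 TPM 1.20% were, with 1.08% higher in replicate 1 and 0.128% in replicate 2. Of all genes of at least 100 TPM 1.85% were, with 1.79% higher in replicate 1 and 0.0598% in replicate 2.

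**Figure D3:**
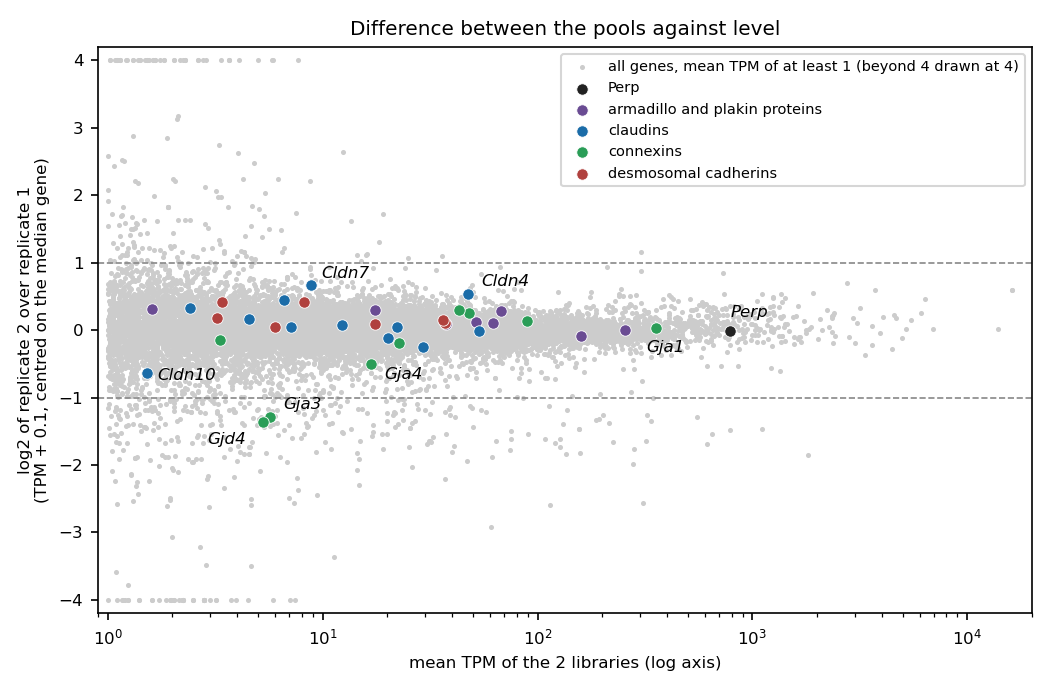
Difference between the pools (log2 of replicate 2 over replicate 1) against mean TPM on a log axis, with coloured points for the junction genes and grey points for all genes of at least 1 TPM mean; dashed lines mark 2-fold. Of the junction genes, only Gja3 and Gjd4 lie beyond a dashed line, both on the side of replicate 1.

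All 7 skeletal muscle markers were also higher in replicate 1, 6 of them over 2-fold, against 2.47% of all genes of at least 1 TPM mean. Their median log2 difference was -1.53, with a range from -2.56 to -0.97. The 6 were Acta1, Ckm, Tnnt3, Myh3, Myh8 and Mymk, genes of the contractile apparatus, its energy supply and myoblast fusion, from 2.187-fold for Mymk to 5.908-fold for Ckm. None of the 7 was at 0, and their mean levels ran from 48.7 to 1821 TPM. The 6 osteoblast markers were also all higher in replicate 1, with a median of -0.82, and Spp1 (osteopontin) was over 2-fold apart at 2.388-fold. The part of muscle or bone RNA in the difference of Gjd4 and Gja3 was not tested.

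The endothelial claudin Cldn5 and the arterial connexins Gja4 and Gja5 were higher in replicate 1. The log2 difference was -0.50 for Gja4, -0.25 for Cldn5 and -0.19 for Gja5. The 8 endothelial markers were also all higher in replicate 1, from -0.32 to -0.03 with a median of -0.20, and summed to 317 and 270 TPM. The 6 mural and smooth muscle markers, again all higher in replicate 1, had a median of -0.42. Gjc1, also known from vessels and smooth muscle, was higher in replicate 2, with a difference of 0.30 and intervals that did not overlap. The part of vessel RNA in these differences was not tested.

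The desmosomal genes leaned to replicate 2 by small amounts. All 7 desmosomal cadherins with a mean of at least 1 TPM were higher there, from 0.04 for Dsg1b to 0.42 for Dsg3 and for Dsg2. So were 7 of the 8 armadillo and plakin genes, led by Pkp2 at 0.32, Pkp4 at 0.30 and Pkp1 at 0.29, with Pkp3 alone below 0 at -0.08. The median over all genes of that level was 0 by the centring. Pkp2 rested on 90 and 135 counts. The deposited intervals of the libraries overlapped for Dsg1b, Dsc1, Dsc2, Pkp2, Evpl and Jup. Pkp3 was at 0.02 under TMM scaling of counts, and Jup, at 0.001, was at -0.02 without centring, so neither had a stable direction. The 7 basal keratinocyte markers had a median of 0.07 with 4 higher in replicate 2. The 7 suprabasal markers had a median of -0.07 with 1 higher in replicate 2. The 7 periderm and simple epithelium markers had a median of 0.05 with 5 higher in replicate 2. Perp lay at -0.01, and at 0.001 on posterior mean TPM.

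**Figure D4:**
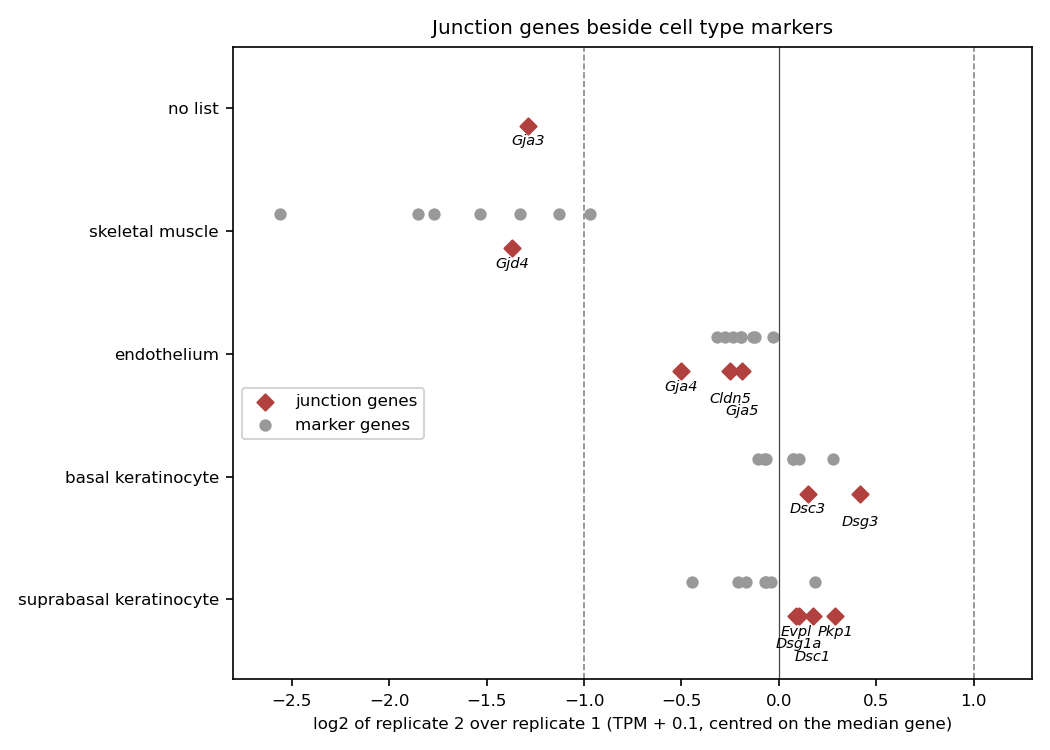
Difference between the pools (log2 of replicate 2 over replicate 1) of marker genes (circles) and of junction genes (diamonds) placed beside the cell type in which they are best known. Gja3, with no such list, has a row of its own. Only chosen junction genes are drawn, so the directions of the diamonds do not describe the families. Among those left out, Gjc1 lay at 0.30 and Pkp3 at -0.085. All muscle and endothelial points that are drawn lie below 0.

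Of the 12 claudins with a mean of at least 1 TPM, 8 were higher in replicate 2, and none was over 2-fold apart. The widest differences were 0.68 for Cldn7, -0.64 for Cldn10 and 0.54 for Cldn4. For Cldn4 the counts were 1500 and 2617, and the intervals (36.5 to 40.3 TPM and 52.9 to 57.1 TPM) did not overlap. For Cldn7, looked at further after its values were seen, the counts were 126 and 165, which is 3.59 and 3.95 CPM, a 1.101-fold difference. Its TPM difference came with a short transcript of 373 nt, Cldn7-205, which held 15.4% of the gene's TPM in replicate 1 and 53.9% in replicate 2. Without length scaling Cldn7 was therefore nearly level between the pools.

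The deposited intervals of the libraries did not overlap for 17 of the 39 members, against 23.2% of all genes of that level. The share among the 15 members of 1 to 10 TPM was 5 of 15 against 13.3%, and among the members of at least 10 TPM it was 12 of 24 against 29.5%. Among these 17 the fold between the libraries ran from 1.073 for Dsg1a to 2.58 for Gjd4. Dsp, Dsc3, Ppl and Gjb2 lay near the lower end, at 1.087, 1.110, 1.080 and 1.102. Dsg2 and Dsg3 (1.336 and 1.337), Cldn6 (1.363), Gja4 (1.418), Cldn4 (1.450) and Gja3 (2.44) lay at the upper end. The intervals leave out variation between embryos and in library preparation.

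Many members lie beside each other in the genome. Within 200 kb of another member were 29 of the 61, in 9 groups (coordinates of GENCODE M21 on GRCm38). Neighbours often differed greatly in level. On chromosome 14, Gja3 (57034460 to 57058100), Gjb2 (57098600 to 57104702) and Gjb6 (57123303 to 57133611) lie on the minus strand within 99.2 kb, with mean levels of 5.71, 88.9 and 48.2 TPM. On chromosome 5, Cldn13 (134914249 to 134915526, minus strand), Cldn4 (134945119 to 134946934, minus strand) and Cldn3 (134986214 to 134987472, plus strand) lie within 73.2 kb, with means of 0.645, 47.7 and 22.2 TPM.

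On chromosome 17, Cldn6 and Cldn9 lie within 4.8 kb on opposite strands, with the like means of 6.59 and 4.57 TPM. On chromosome 16, Cldn1 at 53.2 TPM lies within 126.1 kb of Cldn16, for which no read was counted, and Cldn8 at 2.41 TPM lies beside Cldn17 at 0.155 TPM. All 9 desmosomal cadherins form 1 group on chromosome 18 within 643.6 kb, from 0.07 TPM for Dsg1c to 37.3 TPM for Dsg1a.

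**Figure D5:**
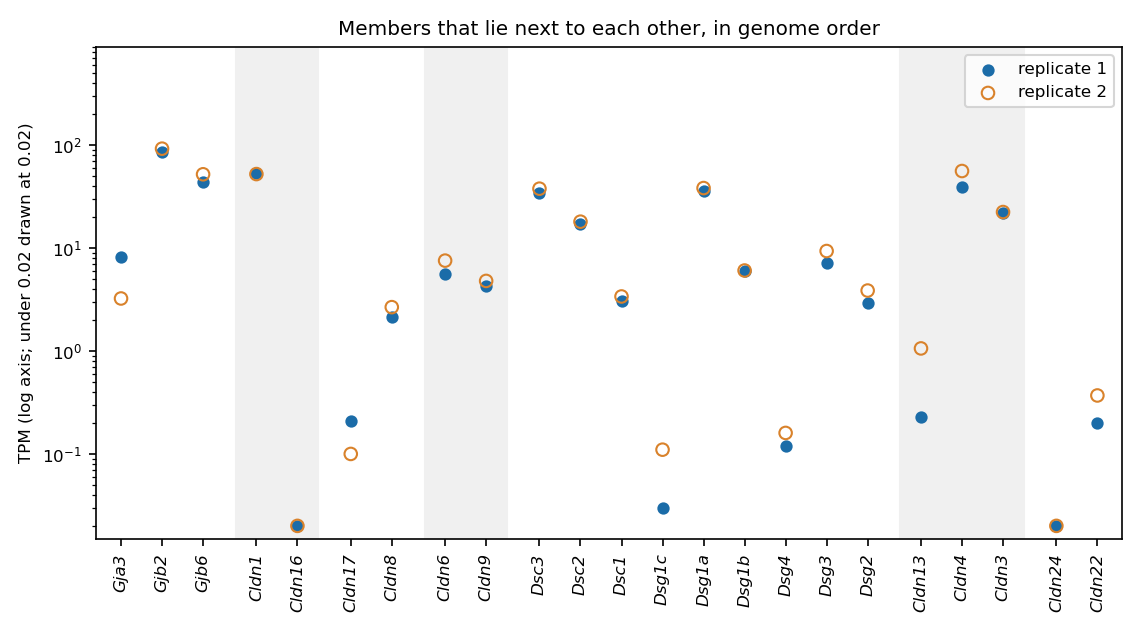
Level in TPM, on a log axis, of junction genes that lie within 200 kb of another junction gene, in genome order within each of 7 of the 9 groups, with 1 point for each library and the lowest values drawn at the floor of the axis. Within a group the levels range widely, as in the group of Gja3, Gjb2 and Gjb6, and Cldn6 and Cldn9 lie close together.

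The stretches just before the start sites are shown for neighbours on chromosomes 5 and 14, chosen after their levels were seen, because members of high and of low level lie side by side there. They come from RefSeq on GRCm38.p6, run 5′ to 3′ in the direction of the gene, and end at the base before the start site, except for Gja3, whose stretch ends 70 bases earlier, where an annotated exon begins. Entries were found for 34 of the 61 members. No stretch is shown for Cldn13, the member of low level on chromosome 5 (mean 0.645 TPM). Only Cldn4 and Cldn3 are printed there. Capitals mark matches on either strand. The letters searched were GGGCGG for a GC box and CAGCTG for an E-box. A TATA box was searched as TATAAA, and a site of the grainyhead type as AACCNGTT. For Cldn4 the stretch is chr5:134946935-134947184 (minus strand), for Cldn3 chr5:134985964-134986213 (plus strand), for Gjb2 chr14:57104703-57104952, for Gjb6 chr14:57133612-57133861 and for Gja3 chr14:57058101-57058280 (all minus strand).
Cldn4: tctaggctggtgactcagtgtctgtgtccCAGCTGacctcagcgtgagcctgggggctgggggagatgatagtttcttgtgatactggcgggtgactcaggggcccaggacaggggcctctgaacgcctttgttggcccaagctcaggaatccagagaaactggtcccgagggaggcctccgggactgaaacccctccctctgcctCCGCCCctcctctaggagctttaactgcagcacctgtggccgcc
Cldn3: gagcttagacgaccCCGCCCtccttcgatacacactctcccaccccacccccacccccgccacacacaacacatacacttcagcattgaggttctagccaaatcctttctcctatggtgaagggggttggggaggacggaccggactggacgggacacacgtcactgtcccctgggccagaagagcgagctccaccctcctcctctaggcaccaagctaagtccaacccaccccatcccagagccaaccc
Gjb2: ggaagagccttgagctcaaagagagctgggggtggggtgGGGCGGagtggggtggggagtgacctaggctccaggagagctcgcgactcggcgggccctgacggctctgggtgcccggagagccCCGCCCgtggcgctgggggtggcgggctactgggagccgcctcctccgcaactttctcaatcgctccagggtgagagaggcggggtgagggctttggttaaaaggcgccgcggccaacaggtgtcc
Gjb6: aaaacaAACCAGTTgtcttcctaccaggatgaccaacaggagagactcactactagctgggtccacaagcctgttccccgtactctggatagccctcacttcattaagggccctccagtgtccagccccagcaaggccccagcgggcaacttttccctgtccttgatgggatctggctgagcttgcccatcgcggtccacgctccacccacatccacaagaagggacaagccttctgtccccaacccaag
Gja3: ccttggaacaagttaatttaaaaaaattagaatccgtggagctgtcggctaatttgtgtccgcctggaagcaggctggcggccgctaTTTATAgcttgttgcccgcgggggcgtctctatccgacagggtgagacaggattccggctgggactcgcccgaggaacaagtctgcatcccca

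Within these windows Cldn4 held 1 E-box match and 1 GC box match, Cldn3 held 1 GC box match and Gjb2 held 2. Gjb6 held 1 grainyhead-type match and no GC box. Gja3, searched over 250 bases of which the 180 outside annotated exons are printed, held 1 TATA box match on the other strand. Base composition also differed: the G and C share was 69.2% for Gjb2 with 18 CpG pairs, 56.8% for Gjb6 with 5, 62.8% for Gja3 with 26, 62.0% for Cldn4 with 7 and 60.8% for Cldn3 with 9, against medians of 52.4% and 6 over all 32851 promoters of this length. Over all of them, 32.7% held a GC box, 13.0% an E-box, 12.4% a TATA box and 1.79% a grainyhead-type match. The 47 promoters of members held these in 20, 7, 5 and 2 cases. Also searched was CCAAT, held by 33.9% of all promoters and by 18 of the 47. A match describes the letters, not binding.

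Coding sequences of neighbours were alike to different degrees, far less than the Dsg1 copies. Cldn6 and Cldn9 were identical at 75.9% of aligned bases, Gjb2 and Gjb6 at 75.7% and Cldn3 and Cldn4 at 73.0%. Expected counts were whole numbers, to within 0.005, for 56 of the 61 members and fractional for Dsp, Dsg2 and the 3 Dsg1 copies.

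RNA of genes whose proteins work with these junctions was also found. For the lists below, the share of all protein-coding genes with at least 1 TPM in both libraries was 62.7%. All 18 tight junction partners reached 1 TPM in both libraries, 9 higher in each, with none over 2-fold apart and a median log2 difference of 0.01. Jam3, a junctional adhesion molecule, led at 85.9 ± 10.6 TPM, then F11r, of the same family, at 58.1 ± 0.177 TPM and Epcam, which binds claudins, at 44.0 ± 0.933 TPM. The lowest was Pard6b, a polarity protein, at 2.78 ± 0.474 TPM.

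All 16 desmosome and cornified junction partners reached 1 TPM. Over 2-fold higher in replicate 1 were 3 of them, against 2.47% of all genes of at least 1 TPM mean. Des (desmin, the muscle filament that desmosomes anchor in heart) was at 192 and 61.5 TPM. Cdsn (corneodesmosin, the glue of cornified cells) was at 4.05 and 1.64 TPM. Klk7 (a protease that cuts it) was at 12.2 and 5.95 TPM, a 2.006-fold difference that lies right at the limit. The remaining partners included the keratins Krt14, Krt1 and Krt5, whose mean levels of 1066, 926 and 732 TPM exceeded Perp in the case of Krt14 and Krt1.

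Of the 7 pannexins and connexin partners, 6 reached 1 TPM in both libraries, 3 higher in each, with a median of -0.04. Cav1 (caveolin) was at 229 ± 39.0 TPM, Panx1 at 21.5 ± 1.49 TPM and Panx3, the pannexin of cartilage and bone, at 18.9 ± 0.0919 TPM, while Panx2 was at 0.275 ± 0.0212 TPM. The 9 transcriptional and splicing regulators of epithelial junction genes all lay near 0 in their difference between the pools, from -0.06 to 0.09 with a median of 0.00. Klf5 was at 59.7 ± 0.827 TPM, Trp63 at 52.2 ± 1.34 TPM and Grhl3, a grainyhead factor, at 48.5 ± 0.651 TPM, and the lowest was Grhl2 at 8.22 ± 0.113 TPM.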

How the data were processed

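Per the labels, extraction was by Ambion mirVana and the assembly mm10. The deposited records name GENCODE M4 as annotation. No aligner or counting program is given in the sources used here. The deposited tables hold expected counts (estimated counts that need not be whole), TPM, posterior mean TPM with an interval for each TPM, FPKM and, for transcripts, the percent share of the gene. TPM lies outside its own interval for 10 members, because the intervals surround the posterior mean.

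Names, coordinates and exons came from GENCODE M21 on GRCm38, matched on the gene identifier, and 884 rows had no symbol. Differences were log2 of TPM plus 0.1, centred on the median gene of mean TPM of at least 1, and over 2-fold was the limit for a difference. Python 3.11.15, pandas 2.3.3, numpy 2.4.6, Biopython 1.88 (alignments of coding sequences) and matplotlib 3.10.9 were used. TMM scaling (edgeR 4.0.16, R 4.3.3; expected counts rounded) was an alternative. Only the function for the difference between libraries was tested on simulated data, with large changes in genes of at least 10 TPM mean. Gjd4 and Gja3 lie under that level.

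A few connexins are counted in the family totals and are not reported here by name. The other members are accounted for, those of at least 1 TPM mean with both values; of each list of junction partners or regulators the 3 highest, the lowest and any over 2-fold apart were named, and marker lists are given by sums and medians, with only the muscle and osteoblast markers over 2-fold apart named. Members and lists were chosen with earlier results of these data known.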

Additional observations from a re-analysis of the deposited data

How the results depend on the processing

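The 39 detected members ranged from 37 to 42 over 7 alternatives, and 40 were counted with either library alone. The median difference of the members, 0.09, ranged from 0.01 (a mean in place of the median) to 0.09. With no filter on low values, 4 members were over 2-fold higher in replicate 1 (Cldn2 and Cldn15 added) and 2 in replicate 2 (Cldn13 and Gjd2, on 28 and 10 counts at most). At a mean of at least 10 TPM the first count was 0, since Gja3 and Gjd4 lie under it. Under a pseudocount of 1, no centring, TMM, posterior mean TPM or FPKM it was 2.

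On the deposited FPKM scale the median levels were 0.98 for claudins, 3.88 for desmosomal cadherins, 36.6 for armadillo and plakin genes and 2.13 for connexins, by a different total. By expected counts, with no length scaling, the leading shares were 38.2% for Cldn1, 37.1% for Dsg1a, 31.2% for Jup and 67.0% for Gja1. By posterior mean TPM the cadherin median was 5.89 and the Gja1 share 57.9%. Of 24 log2 ratios, 2 turned direction on their mean, that of Pkp1 over Pkp3 in replicate 2 only. By expected counts Pkp1 over Pkp3 was 0.10 and Cldn6 over Cldn7 was 0.65 (-0.39 on TPM), and over coding transcripts of at least 1000 nt, a choice made after seeing the data, Cldn6 over Cldn7 was 1.23. Cldn1 over Cldn4 was 0.46 in replicate 1 and -0.10 in replicate 2.

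No paired analysis was possible because both libraries belong to 1 group, and leaving out a library leaves no difference between libraries. Values under 1 TPM rest on few counts.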
